A study of Sus scrofa with 14 samples.

Results

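Complement is a plasma and tissue defence system of proteins that tag particles for uptake by phagocytes. The report covers 8 complement genes of the pig mammary gland, listed by symbol as C1QA, C1QB, C1QC, C3, C4BPA, CFB, CD55 and CD59. Symbols of 5 of them occurred among the gene names of the count tables, and CFB was added through its Ensembl identifier, so that 6 of 30071 genes had values. C1QA carried its symbol in the section tables and the same identifier in all others. CD55 and CD59 matched no identifier and were not analysed here.

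C1QA, C1QB and C1QC encode the chains of C1q, which recognises bound antibody and dying cells, and macrophages are its best known source. C3 is the central protein on which all complement routes meet, and CFB, factor B, forms the convertase of the alternative route. C4BPA encodes the alpha chain of C4b-binding protein, an inhibitor of the classical and lectin routes made mainly in liver. In the mammary gland complement is known for its part in defence and in clearing cells during involution.

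Single-nucleus RNA sequencing covered 10 glands of multiparous sows, 2 each at G90 (day 90 of gestation), L0 and L20 (days 0 and 20 of lactation) and PI2 and PI7 (days 2 and 7 of involution). Spatial sequencing covered 1 section each at G90 and PI2, and single-cell sequencing covered 1 milk sample each at L0 and L20. No treatment or genotype differed between groups, and the glands were sampled in different sows. The labels do not tie the sections or milk to particular glands.

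Between 9332 and 18693 nuclei per gland remained after filtering, with 18700704 to 53161349 UMIs (unique molecular identifiers, 1 per captured transcript). The 2 milk libraries held 17571 and 14514 cells, and the sections 4721 and 2248 spots. Nuclei and cells were put in a class by the number of marker genes they showed, with no complement gene among the markers. The macrophage class took from 0.287% to 13.9% of the nuclei of a gland, and its highest share was in the second L20 gland. In this gland 10.9% of nuclei were luminal epithelial, the lowest share of all glands. Gland libraries shared at most 1.23% of the barcodes of the smaller library. Intervals given here are 95% intervals that cover counting error only.

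The 3 C1q genes lie side by side, and the stretches before their starts are shown because the 3 genes were found together in the same class. In Sscrofa11.1 the order on chromosome 6 was C1QA (80586259 to 80589213), C1QC (80592591 to 80597464) and C1QB (80601680 to 80606076), all on the plus strand and within 19818 bases. C3 lies on chromosome 2 (72431470 to 72471622) and CFB on chromosome 7 (24034077 to 24040523). C4BPA has 2 RefSeq loci on chromosome 9 (67726159 to 67774369 and 67815544 to 67827509), and which of them the counted identifier covers was not settled, so its reads may be shared with a related copy. The 250 bases upstream of each C1q gene follow, 5′ to 3′, read from the RefSeq genome, with matches to GAGGAA (the core letters of the myeloid factor PU.1) on either strand in capitals.
C1QA, chr6:80586009-80586258: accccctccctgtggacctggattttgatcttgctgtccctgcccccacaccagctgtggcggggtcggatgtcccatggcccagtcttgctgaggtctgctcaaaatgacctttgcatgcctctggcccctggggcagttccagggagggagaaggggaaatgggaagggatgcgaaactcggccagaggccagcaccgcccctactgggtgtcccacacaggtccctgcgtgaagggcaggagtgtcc
C1QC, chr6:80592341-80592590: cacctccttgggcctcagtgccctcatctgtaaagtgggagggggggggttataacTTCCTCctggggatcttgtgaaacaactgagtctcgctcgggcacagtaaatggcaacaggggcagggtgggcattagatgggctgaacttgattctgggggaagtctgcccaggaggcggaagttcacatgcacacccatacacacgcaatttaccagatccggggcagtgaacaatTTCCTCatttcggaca
C1QB, chr6:80601430-80601679: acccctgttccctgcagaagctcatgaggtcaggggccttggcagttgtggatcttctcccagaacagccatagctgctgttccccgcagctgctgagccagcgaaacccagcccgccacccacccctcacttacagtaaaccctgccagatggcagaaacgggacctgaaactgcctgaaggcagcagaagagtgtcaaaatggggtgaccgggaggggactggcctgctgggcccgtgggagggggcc
The letters matched 2 times in the C1QC stretch, both on the minus strand, and in neither of the other two. Of 19556 stretches of this length before protein-coding genes, 21.97% held at least 1 match. TTGCNNAA, the core of C/EBP sites, matched before none of the 3 genes and not before C3 or CFB, against 8.22% of all stretches. The 1 NF-kB pattern searched did not match before these genes either, against 1.79% of all stretches. This pattern fixes most of its letters. Whether NF-kB sites with other letters lie before CFB or the other genes was not tested.

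The C1q genes were highest in the macrophage class. C1QB had a median of 330 CPM (UMIs scaled to equal depth of the class) over the macrophages of 10 glands, from 114 in the second PI2 gland to 604 in the first L0 gland. C1QC had a median of 292 CPM, from 108 to 712, and C1QA of 167 CPM, from 55.1 to 507. In every gland the macrophage level of each chain was above its level in luminal epithelial, fibroblast and endothelial nuclei of that gland. In luminal nuclei the medians were 2.74 CPM for C1QA, 7.94 CPM for C1QB and 5.27 CPM for C1QC.

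With UMIs summed per class and gland, the gland as a block and edgeR's quasi-likelihood test over all genes, the macrophage class was above luminal epithelial nuclei by 5.31 on the log2 scale for C1QA (SE 0.33, adjusted p = 1.36e-23). The difference was 5.05 for C1QB (SE 0.31, adjusted p = 2.12e-24) and 5.38 for C1QC (SE 0.32, adjusted p = 6.28e-25), both by edgeR. A gene was called at an adjusted p under 0.05 and a difference over 1 on the log2 scale. All 3 chains were called against each of the 8 other classes. Over all 13345 genes tested, the share called was 28.1% against luminal epithelial nuclei, 25.1% against myoepithelial, 24.4% against adipocyte, 23.8% against fibroblast, 21.2% against endothelial, 20.3% against mural, 15.4% against T and NK and 11.5% against B and plasma nuclei. The smallest differences were to the B and plasma class, next in the order, with 2.19 for C1QB (SE 0.39, adjusted p = 1.59e-05 by edgeR). Macrophage markers had a median of 603 CPM in that class, and 77.7% of its 613 nuclei led by a single marker. The gate was also narrow for the macrophage class, where 49.1% of 4361 nuclei led by a single marker, and by clustering 2781 of them fell in macrophage clusters, 571 in a neutrophil and 538 in B and plasma clusters. With a lead of at least 2 markers 37 of the 38 calls of 5 members against macrophages remained. In the remaining named classes the medians of C1QB lay between 0 and 17.7 CPM.

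**Figure D1:**
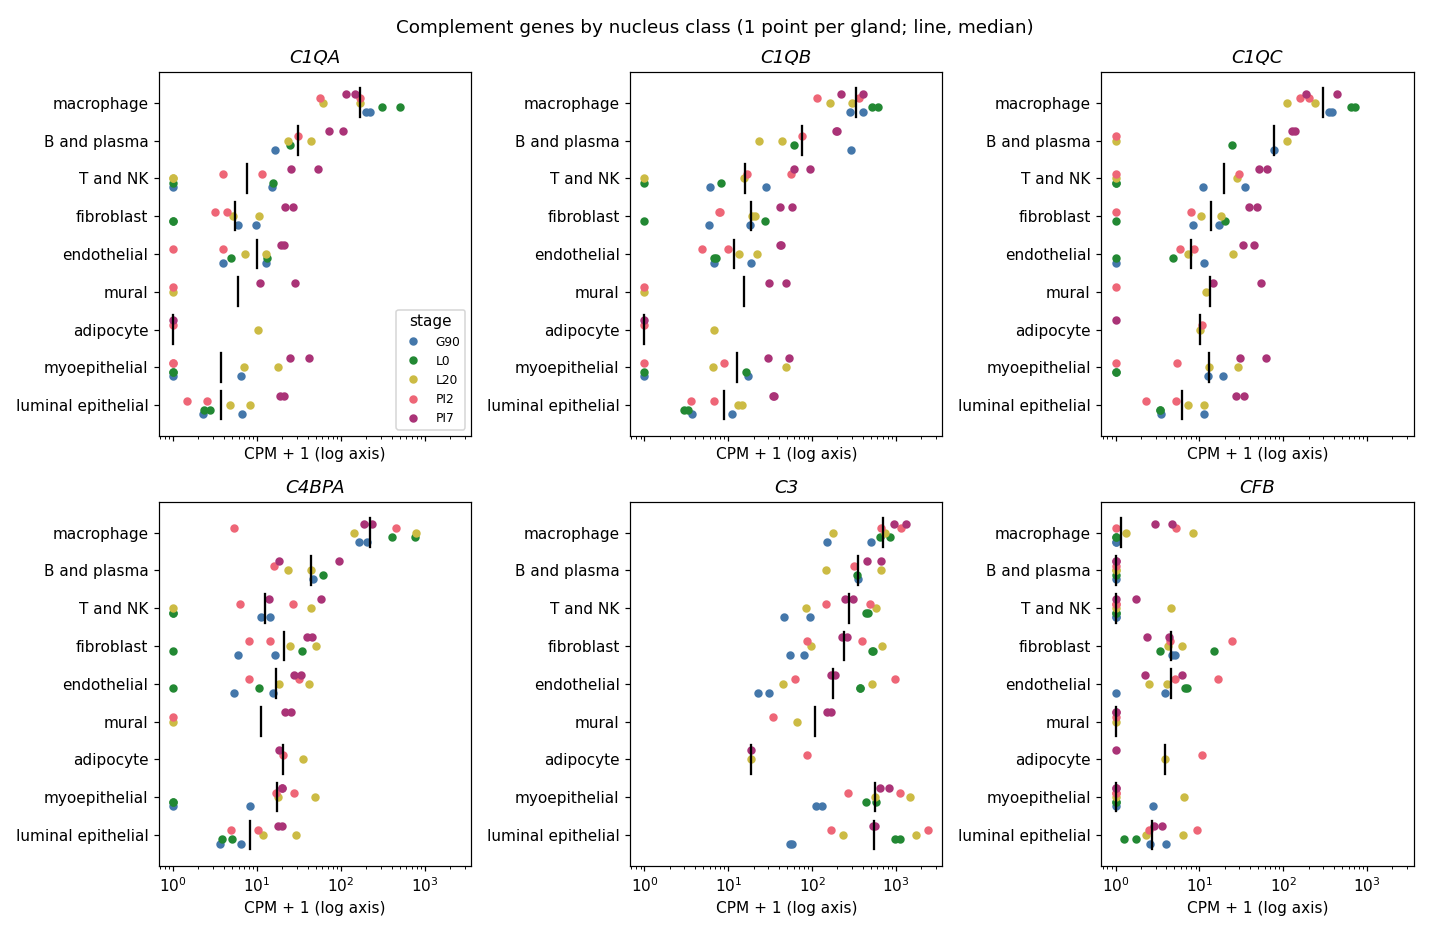
Level of 6 complement genes by nucleus class, with CPM + 1 on a log axis, 1 point per gland coloured by stage and a line at the median. Points of C1QA, C1QB, C1QC and C4BPA lie farthest right in the macrophage class, while those of C3 spread over all classes and those of CFB stay near the left edge.

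Of the macrophage nuclei, 11.5% to 46.5% per gland had a C1QB UMI, against 0.366% to 7.32% of luminal nuclei. Luminal nuclei outnumbered macrophages in every gland but the second of L20, with 1654 luminal and 2113 macrophage nuclei there. The luminal class held 24.1% of all C1QB UMIs of the glands and the macrophage class 38.3%. Without the second L20 gland the order turned round, with 34.6% in the luminal and 23.3% in the macrophage class. The luminal share of nuclei with a C1QB UMI was highest in both PI7 glands. No ambient RNA or doublets were removed, and their part in these luminal UMIs was not tested. Within the macrophage class the chains kept similar proportions, with C1QA at 14.8% to 27.8% of C1q UMIs over the 8 glands with at least 100 of them, C1QB at 33.2% to 49.6% and C1QC at 27.6% to 44.0%.

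C4BPA followed the C1q genes in the glands. Its macrophage level had a median of 219 CPM, from 4.24 in the second PI2 gland to 773 in the second L20 gland, against a median of 7.30 CPM in luminal nuclei. The macrophage class was above the luminal class by 4.85 on the log2 scale (SE 0.33, adjusted p = 4.28e-22 by edgeR). The second PI2 gland had the opposite order, with 1 UMI in macrophages against 9.15 CPM in luminal nuclei, and the other 9 glands had macrophages higher. In the same test C4BPA was called against each of the 8 other classes. The macrophage class held 55.1% of all C4BPA UMIs of the glands, but 24.6% without the second L20 gland, where the luminal class held 35.2%. In the second L20 gland 813 of 2113 macrophage nuclei had a C4BPA UMI, and 75.4% of these also had a C1q UMI, against 31.0% of the nuclei without C4BPA. Nuclei with both outnumbered the product of the 2 shares in 9 of 10 glands, and in 9 of 10 with nuclei thinned to 500 UMIs. CD163, a scavenger receptor of resident macrophages, was higher in the nuclei with C4BPA in 9 of 10 glands, and it also served as a gate marker. The second G90 gland was the exception for CD163, at 1231 CPM with C4BPA against 1485 without. Only 1 of 157 macrophage nuclei of the second PI2 gland had a C4BPA UMI, and this gland is the exception to the count of nuclei with both. For CD163 this gland counts among the 9 on that 1 nucleus of 504 UMIs, and the second L0 gland on 3 nuclei.

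C3 was not bound to 1 class. Its median was 691 CPM in macrophage, 567 CPM in myoepithelial and 547 CPM in luminal epithelial nuclei. Over all stages together these 3 neighbours in the order did not differ beyond their spread. By edgeR luminal was above myoepithelial by 0.24 on the log2 scale (SE 0.29, adjusted p = 0.572) and macrophage above luminal by 0.20 (SE 0.29, adjusted p = 0.593). The order varied between glands. The macrophage level was 928% and 266% of the luminal level in the G90 glands and 178% and 234% at PI7. It was 87.4% and 56.9% at L0, 42.0% and 75.9% at L20 and 388% and 47.8% at PI2. Whether this order depends on stage was not tested. By edgeR C3 was called higher in macrophages than in 6 of the 8 other classes, by 1.32 against B and plasma, 1.57 against fibroblast, 1.70 against T and NK, 1.95 against endothelial, 2.59 against mural and 3.49 against adipocyte nuclei on the log2 scale. C3 was lower than in luminal nuclei by 1.37 in fibroblasts (SE 0.28, adjusted p = 3.65e-05) and by 1.75 in endothelial nuclei (SE 0.29, adjusted p = 2.47e-07), both by edgeR on the log2 scale. Against these 2 classes 24.3% and 24.9% of all genes were called. Luminal nuclei, the most numerous, held 81.0% of the C3 UMIs of the glands. The gate was narrow for the myoepithelial class, where 68.0% of 1196 nuclei led by a single marker. Luminal markers had a median of 1095 CPM in that class, and by clustering 161 of its nuclei fell in luminal clusters. Their part in its C3 level was not tested.

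Over the 36 pairs of 9 classes 74 of 180 tests of 5 members were called, and the 28 pairs without macrophages gave the following. C3 was also lower than in luminal nuclei in B and plasma (30.8% of all genes called), T and NK (31.4%), mural (24.1%) and adipocyte nuclei (20.6%). It was higher in myoepithelial nuclei than in endothelial (20.2%), fibroblast (15%), T and NK (24.1%), mural (11.9%) and adipocyte nuclei (17.6%), and lower in adipocyte nuclei than in fibroblast (16.8%), B and plasma (21.9%) and T and NK nuclei (25.6%). Between luminal and myoepithelial nuclei (18.6%) no member was called. The C1q chains were all higher in B and plasma than in luminal, endothelial (21.3%), fibroblast (20.4%) and myoepithelial nuclei (19.9%), and C1QB alone was called against T and NK (9.29%) and mural nuclei (13.1%). C1QB and C1QC were also lower in adipocyte than in B and plasma nuclei, and C1QB lower in adipocyte than in T and NK nuclei. The adipocyte class entered with 3 glands, of 404, 24 and 21 nuclei. It had no C1QB UMI in 2 of them and no C1QC UMI in 1. Of the 19 calls of members for B and plasma nuclei outside macrophages, 1 remained with the stricter gate, which left 2 glands with enough nuclei of that class, and the 4 for C1QA changed sign. The calls of C1QA and C1QC against myoepithelial nuclei were also lost without the second L20 gland (adjusted p = 0.106 and 0.195 by edgeR) and without some other single glands, and that of C1QC against fibroblasts without the second L20 gland (adjusted p = 0.0974 by edgeR). By clustering 140 of the 613 B and plasma nuclei fell in macrophage clusters, and their part in these values was not tested. All 3 chains were lower in luminal than in T and NK nuclei, by 1.06 for C1QA, 1.38 for C1QB and 1.36 for C1QC on the log2 scale. T and NK nuclei had no UMI of C1QA in 4 of 10 glands, of C1QC in 4 and of C1QB in 2. C4BPA was above its luminal level in fibroblasts, by 1.11 on the log2 scale, and in B and plasma nuclei, by 1.54. No member was called between endothelial nuclei and adipocyte (22.4%), T and NK (22.3%), fibroblast (16.2%) or mural nuclei (14.2%), between fibroblasts and T and NK (24.8%) or mural nuclei (10.3%), or between mural and adipocyte (14%) or T and NK nuclei (18.6%).

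C3 UMIs in other classes were set beside those of milk protein genes, since such transcripts can leave luminal cells as free RNA, and these genes were chosen after values of C3 were seen. In endothelial nuclei the C3 level was 19.3% to 55.6% of the luminal level of the same gland, with a median of 35.1%, and the level of the casein gene CSN1S1 was 1.57% to 69.6%, with a median of 14.2%. The C3 percentage was above that of CSN1S1 in 9 of 10 glands. It was above that of the casein genes CSN2 and CSN3 in 8 and 9 of 10. For LALBA, the alpha-lactalbumin gene, 8 glands had luminal UMIs and so a percentage, and C3 was below it in 6 of these 8. Some LALBA levels were very low, with 0.512 CPM in endothelial nuclei of the first G90 gland and 0.336 CPM in luminal nuclei of the first PI7 gland. In macrophage nuclei the C3 percentage was above that of CSN1S1 in 10 of 10 glands and of LALBA in 6 of 8. There it was above those of CSN2 and CSN3 in 9 of 10 glands each. The part of free RNA in the C3 level of these classes was not tested.

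CFB was low throughout, from 0.353 to 9.09 CPM over whole glands and with 7 to 170 UMIs per gland. Its medians were 3.62 CPM in endothelial, 3.58 CPM in fibroblast and 1.75 CPM in luminal nuclei. No CFB UMI was found in the B and plasma class of 7 glands or in the mural class of 4. These classes were shallow, with 45167 to 278185 UMIs of all genes per gland and 60738 to 205560. In none of these glands could 0 be told from the medians above. CFB did not pass the filter on low counts in the main comparison of classes. Alternatives did test it over 36 pairs of classes, with 8 pairs called without the filter and 2 with a stricter class gate. Of all genes 4.41% to 23.98% were called per pair without the filter (median 10.8%) and 2.48% to 32.7% with the stricter gate (median 14.2%). Fibroblasts were above T and NK nuclei and above macrophages in both, by 2.84 and 2.57 on the log2 scale with the stricter gate (adjusted p = 0.00639 and 0.00376 by edgeR), where 24.7% and 23.6% of all genes were called. With the main gate CFB had no UMI in T and NK nuclei of 8 of 10 glands and in macrophages of 5 of 10. The size of these differences thus rests on counts near 0.

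Stage was compared next, first over all nuclei of a gland, where fewer cells of a type and less RNA per cell cannot be told apart. None of the 6 members was called in any of the 5 comparisons of stages by edgeR, and of all 22695 genes tested 0% were called in each. At an unadjusted p under 0.05 edgeR gave 1652, 2912, 817, 464 and 1247 genes for L0 against G90, L20 against L0, PI2 against L20, PI7 against PI2 and lactation against non-lactation. DESeq2 called 3 values of members, given below.

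The G90 glands had 69.8 and 56.6 CPM of C3, the L0 glands 945 and 1120, the L20 glands 1598 and 127, the PI2 glands 155 and 2278 and the PI7 glands 434 and 529. Both L0 glands were above both G90 glands, whereas the 2 glands of L20 and of PI2 lay far apart. Milk protein genes in luminal nuclei were split between the same glands, with LALBA at 139 and 3.90 CPM at L20 and 0 and 94.6 at PI2 and CSN2 at 201 and 26.8 and at 2.89 and 497, and CSN3 at 341 and 171 and at 139.6 and 305, while CSN1S1 was split the other way, at 249.9 and 329.6 and at 365 and 144. The part of this gland difference in C3 was not tested. L0 exceeded G90 by 4.43 on the log2 scale (SE 1.36, adjusted p = 0.427 by edgeR). With DESeq2 the adjusted p was 0.00653, and with only the L0 and G90 glands in the edgeR fit it was 0.00901. Both called it, among 1.73% and 2.01% of all genes called in these fits.

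**Figure D2:**
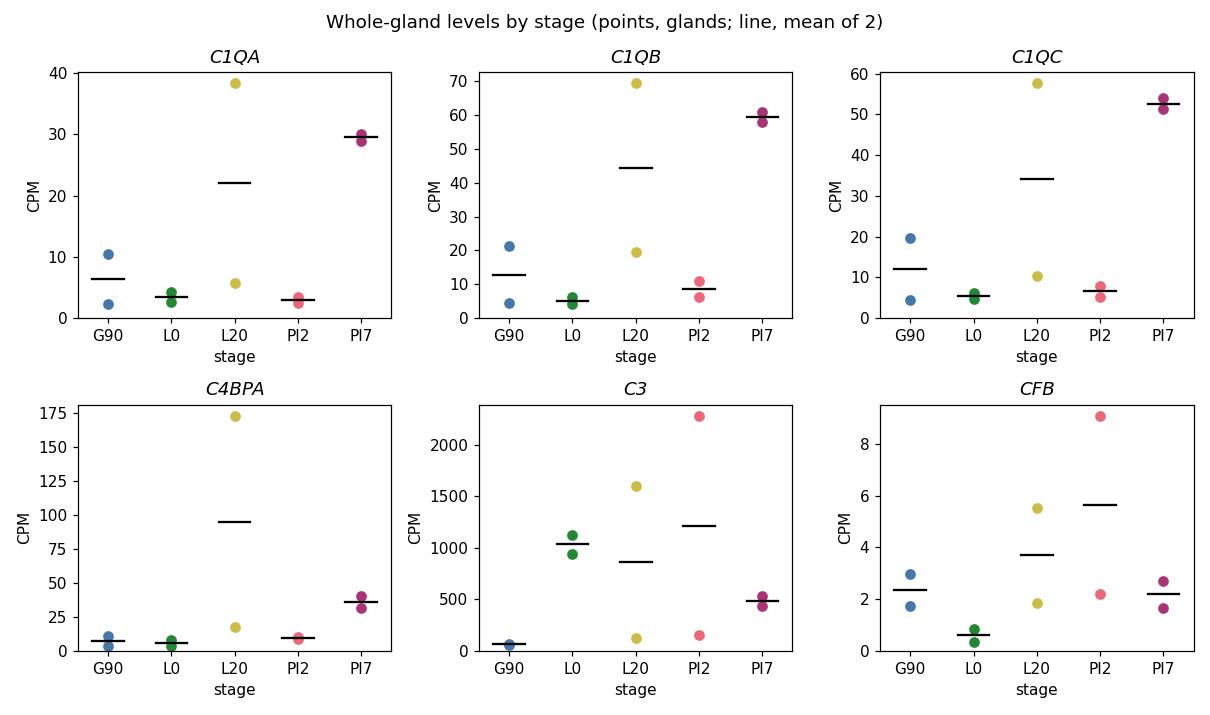
Level of 6 complement genes over all nuclei of a gland by stage, in CPM, with 1 point per gland and a line at the mean of 2. The L0 points of C3 lie above those of G90, the 2 points of L20 and PI2 lie far apart for C3, and the C1q genes are high in the second L20 gland and both PI7 glands.

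The same split ran through the classes. Luminal epithelial nuclei had 53.5 and 56.0 CPM of C3 in the G90 glands, then 959 and 1125 (L0), 1730 and 230 (L20), 169 and 2413 (PI2) and 529 and 565 (PI7). In endothelial nuclei it stood at 29.7 and 21.6, 368 and 373, 520 and 44.4, 62.0 and 977, and 168 and 188 CPM in the same order. The gland that was higher at L20 and at PI2 was the same in both classes, as in fibroblasts. L0 exceeded G90 by 4.62 in luminal nuclei (SE 1.28, adjusted p = 0.191), 3.77 in endothelial nuclei (SE 1.16, adjusted p = 0.786) and 2.95 in fibroblasts (SE 0.84, adjusted p = 0.839), on the log2 scale of C3 by edgeR. In macrophages the difference was 1.04 (SE 0.70, adjusted p = 0.774 by edgeR), and it ran from 0.40 without the second to 2.13 without the first G90 gland. There C3 ranged from 149 CPM at G90 to 1320 at PI7. In luminal nuclei 0.00493% of 20271 genes were called between L0 and G90, and in endothelial nuclei and fibroblasts 0%. C3 was called between L0 and G90 in luminal nuclei by DESeq2 (3.92% of all genes called), without the filter on low counts (0.852%) and with only the samples compared (5.26%), in endothelial nuclei under the last 2 settings (0.333% and 0.0114%) and in fibroblasts without the filter (0.279%). Without the filter it was also called between lactation and non-lactation in endothelial nuclei (0.295%) and fibroblasts (0.394%).

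**Figure D3:**
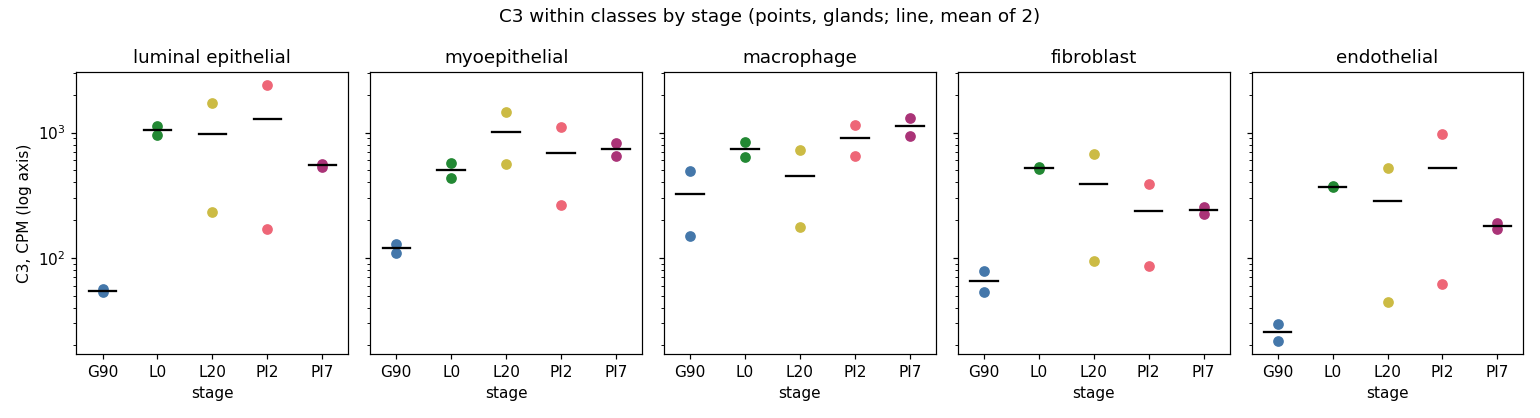
C3 in 5 nucleus classes by stage, in CPM on a log axis, with 1 point per gland and a line at the mean of 2. Both G90 points lie below both L0 points in luminal, myoepithelial, macrophage, fibroblast and endothelial nuclei.

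Over whole glands the C1q genes were highest in the second L20 gland and both PI7 glands. For C1QB the levels were 21.2 and 4.38 CPM (G90), 6.20 and 4.13 (L0), 19.5 and 69.5 (L20), 10.98 and 6.26 (PI2) and 57.9 and 60.8 (PI7). Both PI7 glands lay above both PI2 glands, and the second L20 gland was the highest. The differences of C1QB were 2.43 for L20 against L0 (SE 0.70, adjusted p = 0.210) and 2.46 for PI7 against PI2 (SE 0.70, adjusted p = 0.998), neither called by edgeR. DESeq2 called the first (adjusted p = 0.0151), among 5.1% of all genes. Leaving out the second L20 gland gave 1.70 and leaving out the first gave 3.03. With 1 L20 gland left the spread comes from the other stages, so only the differences are given. In luminal nuclei DESeq2 called C1QB and C4BPA for L20 against L0 (4.39% of all genes called) and the 3 C1q chains for PI7 against PI2 (0.153%). The macrophage class held 2.88% and 13.9% of nuclei at L20, 4.91% and 3.67% at PI7 and at most 1.95% in every other gland. At PI7 most C1QB UMIs lay outside the macrophage class, which held 460 of 2249 and 329 of 1275. This was not particular to PI7. The class held 181 of 702 and 56 of 233 in the G90 glands. In the first glands of L0, L20 and PI2 it held 62 of 174, 88 of 418 and 63 of 272. Only in the second L20 gland did it hold most of them among these glands, with 1880 of 2734. The mean of the 2 glands was higher at PI7 than at PI2 in luminal (33.8 against 4.21 CPM), endothelial (40.8 against 6.45), fibroblast (48.6 against 6.82) and T and NK nuclei (76.1 against 35.2), with both PI7 glands above both PI2 glands in each, and edgeR called none of those it tested. In macrophages the glands overlapped, at 365 and 114 CPM at PI2 and 223 and 408 at PI7.

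Per macrophage UMI the order was another one. C1QC levels in macrophages were 377 and 347 CPM (G90), 712 and 640 (L0), 108 and 237 (L20), 203 and 157 (PI2) and 187 and 435 (PI7). Both L0 glands were above all others, and the 2 L0 values rest on 68 and 27 macrophage nuclei. L20 was below L0 by 1.75 on the log2 scale for C1QC (SE 0.51, adjusted p = 0.306) and by 1.66 for C1QA (SE 0.56, adjusted p = 0.408), not called by edgeR, with 0.0114% of 8797 genes called in macrophages for this comparison and 0.0227% for L0 against G90. Lactation against non-lactation, with no member called either, gave 0.00987% of genes in luminal nuclei.

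C4BPA levels over whole glands were 11.08 and 3.65 CPM (G90), 8.31 and 3.73 (L0), 17.7 and 173 (L20), 8.44 and 10.1 (PI2) and 40.6 and 31.7 (PI7). The second L20 gland held 6801 UMIs of C4BPA, more than all others together. L20 exceeded L0 by 3.22 on the log2 scale (SE 0.83, adjusted p = 0.190 by edgeR), and DESeq2 called it (adjusted p = 0.00332), as did edgeR without the filter on low counts (adjusted p = 0.0421), among 5.1% and 0.937% of all genes. Without the second L20 gland the difference was 1.34, which rests on 1 L20 gland.

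In milk most C4BPA UMIs were in neutrophils, which held few of the C1q genes. Milk had 1 library per stage, so no test was possible. C4BPA was highest in milk neutrophils, at 2890 CPM at L0 (2862 to 2919) and 1144 CPM at L20 (1120 to 1169). A C4BPA UMI was found in 72.1% of 9790 neutrophils at L0 and in 48.9% of 5502 at L20, with median depths of 1194.5 and 1125 UMIs. In T and NK cells, at median depths of 1644 and 1620 UMIs, the shares were 7.90% and 4.54%. The same neutrophils held C1QB at 3.95 and 6.22 CPM only. The milk macrophage class also held C4BPA, at 173 CPM at L0 and 301 at L20, where it was above each C1q chain. In this class 41.8% of cells led by a single marker, and neutrophil markers, at 6746 and 9037 CPM, exceeded its macrophage markers, at 3632 and 3777. Their part in the values of this class was not tested.

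C1QB was found in milk in the macrophage class, at 1196 CPM at L0 (1165 to 1227) and 190 CPM at L20 (183 to 196). The macrophage class held 94.5% of the C1QB UMIs of milk. These UMIs came from few cells, 99 of 1034 at L0 and 123 of 2579 at L20, with 57.8 and 27.5 UMIs per such cell. At L20, 20.8% of the macrophages with a C4BPA UMI had a C1q UMI, against 5.15% of those without. At L0 the shares were 16.5% and 10.8%, but with cells thinned to 1000 UMIs 4 cells had both against 11.5 from the product of the shares, so the direction was not the same. Unlike in most glands, CD163 was lower in milk macrophages with C4BPA, at 379 against 775 CPM at L20 and 413 against 424 at L0. In the neutrophil class neutrophil markers reached 35608 and 20906 CPM.

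Among milk classes with at least 20 cells in both libraries C3 was highest in luminal epithelial cells at L20, at 242 CPM (233 to 252), against 26.6 CPM (25.3 to 28.0) at L0. In milk macrophages the order of stages was the opposite, with 119 CPM at L0 and 28.1 at L20. CFB lay between 0.894 and 6.36 CPM in neutrophils, macrophages and luminal cells of milk.

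**Figure D4:**
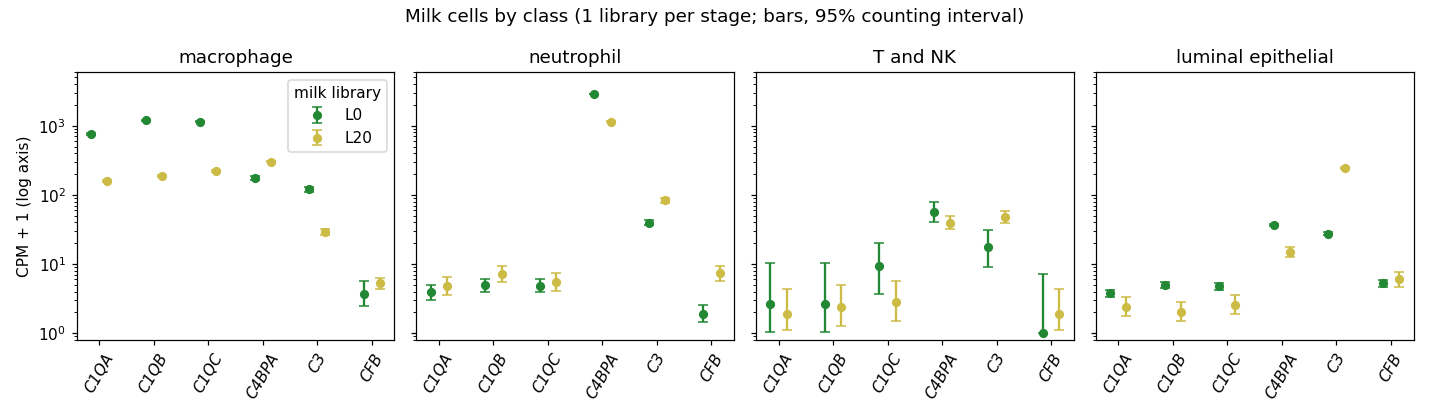
Level of 6 complement genes in 4 classes of milk cells, as CPM + 1 on a log axis, with 1 library per stage and bars for the 95% counting interval. The C1q genes are highest in macrophages, C4BPA in neutrophils, and C3 is higher at L20 than at L0 in luminal epithelial cells.

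In the tissue sections each C1q chain was at a higher level at PI2 than at G90, again without replicates. Macrophage markers were also higher at PI2, at 670 against 230 CPM, as were B and plasma markers at 3088 against 1150.5 CPM and neutrophil markers at 91.8 against 13.99 CPM. Myoepithelial markers stood at 2366 against 753 CPM, endothelial markers at 876 against 437, T and NK markers at 195 against 56.5 and luminal markers at 5008 against 3494, while fibroblast markers were lower, at 3096 against 4105, as were adipocyte markers, at 41.5 against 79.01. Their part in the differences of the members was not tested. C1QB stood at 193 CPM (189 to 197) at G90 and 464 CPM (454 to 474) at PI2, and C1QA at 83.3 and 260 CPM. C3 stood at 108 CPM (105 to 112) and 849 CPM (836 to 863), and C4BPA at 56.4 and 170 CPM. CFB stood at 6.47 CPM (5.73 to 7.28) and 4.64 CPM (3.69 to 5.75). In whole-gland nuclei the mean of each C1q chain had the opposite order of stages. C1QA stood at 6.37 CPM at G90 and 2.97 at PI2, C1QB at 12.8 and 8.62, and C1QC at 12.02 and 6.54. The means of C4BPA, at 7.37 and 9.24 CPM, and of C3, at 63.2 and 1217, were higher at PI2 there too. The mean of CFB, at 2.37 and 5.66 CPM, was higher at PI2, unlike in the sections. The glands of both stages overlapped for each C1q chain, for C4BPA and for CFB, but not for C3. The cause of these differences was not tested. A C3 UMI was found in 55.8% of 4721 spots at G90 and 85.5% of 2248 at PI2. A spot can hold several cells, and the median depth was 8062 UMIs at G90 and 5927 at PI2.

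Spots were ranked by the share of their UMIs from the markers of a class, and the richest 25% of spots were set beside the poorest 25%. All barcodes of the PI2 section also occur in the G90 section, since spot barcodes name places on a slide. C4BPA stood at 132 CPM in the spots richest in fibroblast markers and 33.5 in the poorest at G90, and at 389 and 94.1 CPM at PI2. C1QB stood at 201 and 181 CPM in the same spots at G90 and 353 and 438 CPM at PI2. For macrophage markers the ratio of richest to poorest was 1.55 for C1QB and 1.52 for C4BPA at G90, and 2.08 and 1.09 at PI2. The fibroblast-rich spots were shallower, with 5905505 UMIs in all against 14586318 in the poorest at G90 and 1684428 against 6889439 at PI2. C4BPA was also lower in the spots richest in luminal markers, at 47.9 against 96.4 CPM at G90 and 89.6 against 325 at PI2, and higher in those richest in adipocyte markers at G90, at 109 against 47.5, but not at PI2, at 171 against 177. The part of depth in these differences was not tested. In nuclei the fibroblast median of C4BPA was 19.7 CPM. C3 had ratios of 0.833 at G90 and 1.26 at PI2 for luminal markers, 1.18 and 1.28 for macrophage markers, and 1.12 and 1.46 for myoepithelial markers.

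**Figure D5:**
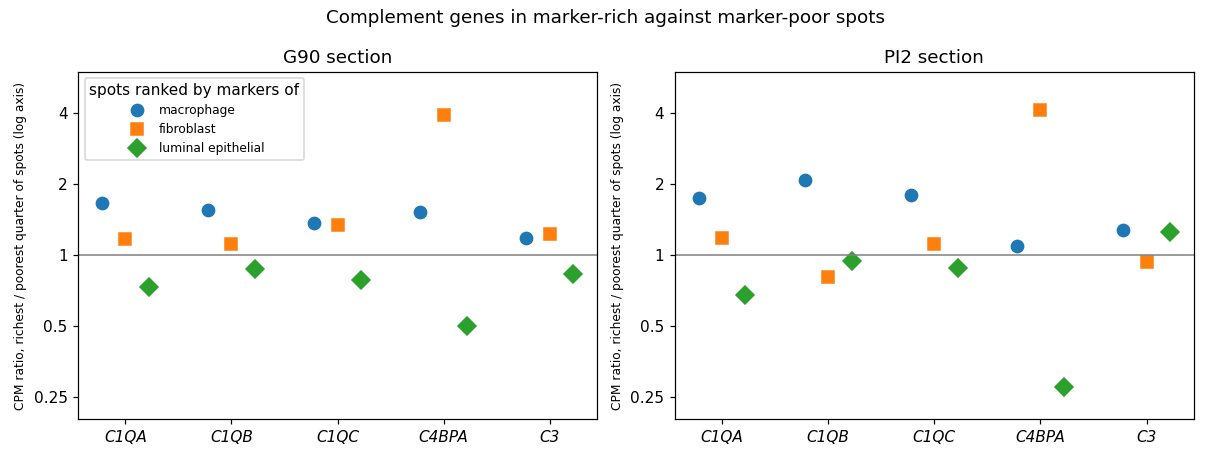
Ratio of the CPM of 5 complement genes in the richest 25% of spots to that in the poorest 25%, on a log axis, with spots ranked by macrophage, fibroblast or luminal markers in the G90 and PI2 sections. C4BPA has ratios of 3.94 and 4.14 for fibroblast markers, the farthest from 1 among the points above it.

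Other complement genes were taken from a list of 40, of which 31 had an identifier. The list was chosen with earlier results of these data known. No gene of the list was called between stages by edgeR, over whole glands (28 tested) or in luminal (26), fibroblast (20), endothelial (20) or macrophage nuclei (13). At an unadjusted p under 0.05, 11 of the 28 were higher at L20 than at L0 over whole glands, with a list median of 1.47 on the log2 scale against 0.24 over all genes, of which 12.8% had such a p in either direction. Without the second L20 gland 8 of the 28 were higher, with a list median of 0.79, and 10.2% of all genes had such a p. At the same threshold 1 of the 28 was higher at L0 than at G90, and 5 were lower at PI2 than at L20. At PI7, 6 were higher than at PI2, and in lactation 2 were lower. The same gene may stand in several of these counts. Of all 22695 genes, 1652, 817, 464 and 1247 had such a p in either direction, in the same order. Macrophages made up 0.594% and 0.287% of nuclei at L0 and 2.88% and 13.9% at L20. Fibroblasts made up 2.30% and 0.607% against 5.88% and 32.6%. The part of these shares in the list values was not tested. CLU, the clusterin gene whose protein restrains the terminal complex, had the highest median of the list in luminal nuclei, 1064 CPM (23.4 to 4021), and in myoepithelial, mural, B and plasma and T and NK nuclei. MASP2, a protease of the lectin route, was next in luminal nuclei with 61.5 CPM. C4A, the source of C4b, led in fibroblasts with 509 CPM, followed there by CLU with 428. COLEC12, a scavenger receptor of the collectin family, and VSIG4, a macrophage receptor for C3b, led in macrophages with 469 and 385 CPM. SERPING1, the inhibitor of C1, led in adipocytes with 157 CPM, before C4A with 67.6, and CD93 led in endothelial nuclei with 136 CPM, before CLU with 127. CFI, which cuts C3b and C4b, was next to CLU in myoepithelial nuclei with 88.7 CPM, SERPING1 in mural nuclei with 120, and ITGAM, a chain of complement receptor 3, in B and plasma and T and NK nuclei with 147 and 111 CPM.

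The genes most like each member were sought over 74 class-by-gland sums, by Pearson's r of log2(CPM + 1) among 10284 genes, as a description of sums that share glands and depth. C1QA was most like C1QB (0.89), CD200R1 (0.83) and LY86 (0.83). C1QB was most like C1QA, PLD4 (0.85) and LY86 (0.84), and C1QC most like PLD4 (0.84), ADA2 (0.82) and VSIG4 (0.82). C4BPA was most like VSIG4 (0.80), FOLR1 (0.79) and C1QB (0.79). C3 was most like CXCL2 (0.69), CPM (0.69), here the carboxypeptidase M gene, and LBP (0.66), and CFB most like PTX3 (0.68), ADM (0.60) and MYO10 (0.59).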

How the data were processed

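Nuclei of 10 glands, 2 tissue sections and 2 milk samples were used. For nuclei and milk the authors made GEXSCOPE libraries and deposited UMI counts per gene from CeleScope on Sscrofa11.1. For the sections they deposited UMI counts made with Space Ranger, version 1.2.0 per the submitters' processing notes, with Seurat 4.3.0 also named there. No source used here gives the annotation release. Members and gene lists were chosen with earlier results of these data known. Named were the 6 members with values, the other complement genes with the 2 highest medians in a class, any called between stages, and the 3 genes most like each member.

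Barcodes under 300 genes or over 25% mitochondrial UMIs were dropped. A class was the one of 10 marker lists with most markers detected, at least 2 and at least 1 more than the next. No doublets or ambient RNA were removed. UMIs were summed per gland and class with at least 20 nuclei, and tested with edgeR 4.0.16 (quasi-likelihood, TMM, filterByExpr, Benjamini-Hochberg adjustment over all genes), in 1 fit over the 5 stages, or over classes with the gland as a block, which pairs classes because they come from the same gland. DESeq2 1.42.0 was an alternative. Fits were tested on simulated data, with a coefficient of variation between glands that was set and not estimated from the data. At 0.4 the stage fit called 34 of 100 genes with a 4-fold change and 100 of 100 with a 16-fold change. At 0.1 it called 100 of 100 with a 4-fold change, as did the class fit at 0.4. Between stages, with 2 glands a group, p-values rest on a spread between these sows that is estimated over all 5 stages. Between classes they rest on the spread left once the gland block is taken out, over 3 to 10 glands a class. Total UMIs set the precision, and a count of 0 allows up to 3 counts. Intervals are exact Poisson. RefSeq gave positions. Other alternatives left out each gland, changed filters, the gate, the normalization or the block, and are given in the closing section.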

Additional observations from a re-analysis of the deposited data

Results flagged for a closer look

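Gland levels of the members were examined for samples far from the others in the 4 lactation and the 6 non-lactation glands, over whole glands and in 4 classes, in 60 groups. 11 stood apart by Dixon's criterion, and several are the same gland seen in several classes. The criterion flags about 1 in 20 groups by chance when normal values come from 1 population. These groups pool stages and use CPM without a log, so this rate need not hold for them.

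The second L20 gland stood apart among lactation glands over all nuclei, with C1QA at 38.4 CPM against 5.68 in the next gland, C1QC at 57.8 against 10.3 and C4BPA at 173 against 17.7. Macrophages made up 13.9% of its nuclei, and the part of this share in the 3 values was not tested.

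The second PI2 gland stood apart among non-lactation glands for C3, at 2278 CPM over all nuclei against 529 in the next, 2413 against 565 in luminal nuclei and 977 against 188 in endothelial nuclei. It also stood apart for CFB, at 9.09 CPM over all nuclei against 2.99, 8.22 against 3.01 in luminal nuclei, 23.3 against 4.17 in fibroblasts and 15.4 against 5.27 in endothelial nuclei. The last 2 rest on 7 and 4 UMIs, and the counting interval of the endothelial value, 4.21 to 39.5 CPM, covers the next gland. In its luminal nuclei LALBA, CSN2 and CSN3 were also higher than in the first PI2 gland and CSN1S1 was lower, and the part of this in the C3 and CFB values was not tested. CFB in macrophages met the criterion at 7.35 CPM in the first L20 gland against 0.313 in the next lactation gland, the second of L20. These are 4 and 2 UMIs, among 544323 and 6380405 UMIs of all genes. The 0 UMIs of the L0 glands allow up to 29.2 and 76.8 CPM, so that no difference from the L0 glands was detectable at this depth.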

How the results depend on the processing

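Over whole glands 0 values of members were called between stages, and the number was 3 with DESeq2, 1 without the filter on low counts and 1 with only the samples compared. Within classes it was 0, and 6, 5 and 2 under the same settings, whose shares of all genes called stand beside these calls in the report. With the replicate number as a block (replicate block) the numbers were 0 and 0. The labels give no shared origin for a number, and same-numbered glands correlated from -0.47 to 0.36 over 10 pairs of stages, above 0.1 in 2, so the numbers were not taken as pairs. Leaving out each gland in turn gave 0 to 0 over whole glands and 0 to 0 within classes. Of the 180 comparisons of 5 members between classes 74 were called, 65 to 75 without a gland, 53 with the stricter gate, 57 without the gland block, 71 without the filter on low counts, 72 with 500 genes and 5% mitochondrial UMIs, 73 with DESeq2, 78 with library size alone and 86 with classes from clusters, where C4BPA had 17 calls against 10. The shares of gland UMIs without the second L20 gland were added after seeing the data. Of the 74 calls between classes 4 changed sign, all with the stricter gate, where C1QA in B and plasma nuclei was fitted at -8.17 against endothelial, -8.35 against fibroblast, -7.69 against luminal and -8.36 against myoepithelial nuclei on the log2 scale, none called and with SEs of 6.84 to 7.84, over 2 glands and 56 nuclei of that class. The order of the macrophage and luminal shares of the C1q and C4BPA UMIs also turned round without the second L20 gland, and so did the joint detection of C4BPA and C1q in L0 milk macrophages after thinning.

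In milk, with 500 genes and at most 10% mitochondrial UMIs, C1QB in macrophages was 1276 CPM at L0 and 199 at L20, and C4BPA in neutrophils 3146 and 785. With the stricter gate these were 1608 and 206, and 3415 and 1449. With cells thinned to 1000 UMIs the share with a UMI was 2.62% for C1QB in L20 macrophages, 43.5% for C4BPA in L20 neutrophils, and 2.76% and 21.3% for C3 in luminal cells at L0 and L20. In sections thinned to 1000 UMIs, C1QB was in 17.6% of spots at G90 and 31.5% at PI2, C3 in 11.05% and 53.8%, and C4BPA in 7.66% and 16.2%. At least 2 UMIs were found in 43.0% and 55.4% of spots for C1QB, 25.1% and 74.2% for C3, and 10.4% and 30.3% for C4BPA. The cause of the other shifts was not tested. Depth limits CFB most, with at most 170 UMIs in a gland.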
